A study of Mus musculus with 288 samples.

Results

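Somatostatin and galanin are inhibitory peptides, and this account follows 5 of their receptor genes, Sstr1, Sstr2, Sstr3, Sstr5 and Galr1, through single cells of the mouse duodenum. The genes were chosen by name, and they are 5 of the 46078 mouse genes in the deposited count table. The cells came from the upper small intestine of male GLU-Venus mice on a C57BL6 background, aged 20 to 21 weeks, in which the promoter of the proglucagon gene drives the fluorescent protein Venus. Each of 288 cells, labelled as L-cells, was sorted into a well and sequenced as full-length cDNA by Smart-seq2, which adds no molecular identifiers. They form 3 pools of 96 cells, and each pool counts here as 1 replicate, because the labels give neither the mouse nor the fluorescence of a cell. By the methods of the study, non-fluorescent control cells were sorted too, from the mice sequenced at low depth, and they were not separated here.

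Cells with at least 20000 reads on mouse genes, of which at most 20% were mitochondrial, were kept, which left 250 cells. Pools SLX-11175 and SLX-11179 were shallow (75 and 87 cells, medians of 52571 and 70726 reads), whereas pool SLX-9703 was deep (88 cells, from 319966 to 4368674 reads). Cells were then grouped by their hormone transcripts in CPM, counts scaled to 1000000 mouse gene reads per cell. Gcg-high cells had at least 10000 CPM of Gcg, the proglucagon gene (16, 18 and 19 cells in SLX-11175, SLX-11179 and SLX-9703, the order used throughout). Gip-high cells had at least 10000 CPM of Gip, the gene of glucose-dependent insulinotropic polypeptide (10, 5 and 10 cells). Pzp-positive cells had at least 100 CPM of Pzp, the gene of the protease inhibitor pregnancy zone protein (14, 22 and 28 cells). Cck-low cells met none of these and had under 1000 CPM of cholecystokinin (Cck) (20, 23 and 6 cells). A further 54 cells were below all 3 marker thresholds and had at least 1000 CPM of Cck, and are called Cck-high here (12, 18 and 24 cells). Another 5 cells met more than 1 threshold and entered no comparison.

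Somatostatin receptors are membrane proteins that couple to inhibitory G-proteins of the Gi/o family. When somatostatin binds, the G-protein lowers cyclic AMP, opens potassium channels and closes calcium channels, so that an endocrine cell releases less hormone. Galr1 is a galanin receptor that couples to the same G-proteins, and galanin reaches the gut mainly from enteric nerves. In the gut epithelium somatostatin is made by D-cells, which lie beside other enteroendocrine cells.

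The 4 somatostatin receptor subtypes are paralogues, and their sequences show how far their reads can be told apart. Their coding sequences run to 1173 bases (Sstr1), 1107 bases (Sstr2), 1284 bases (Sstr3) and 1086 bases (Sstr5). Pairs of them were identical at 66.9 to 72.9% of aligned bases. The longest run that any pair shares without a mismatch was 41 bases, between Sstr3 and Sstr5, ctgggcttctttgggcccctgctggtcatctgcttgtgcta, and the other pairs shared runs of 15 to 23 bases. The most alike 54-base stretch is shown for each subtype, from the GENCODE M21 coding sequences on mm10, with the bases that all 4 subtypes share in capitals (37 of 54). It starts at coding base 937 of Sstr1, 904 of Sstr2, 934 of Sstr3 and 877 of Sstr5.
Sstr1: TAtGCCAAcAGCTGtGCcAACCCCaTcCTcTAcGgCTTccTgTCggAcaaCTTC
Sstr2: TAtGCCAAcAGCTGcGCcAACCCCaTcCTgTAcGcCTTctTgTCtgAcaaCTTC
Sstr3: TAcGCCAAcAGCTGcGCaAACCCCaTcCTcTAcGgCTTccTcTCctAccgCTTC
Sstr5: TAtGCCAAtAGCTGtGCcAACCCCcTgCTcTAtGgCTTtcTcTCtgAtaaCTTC
In this stretch Sstr1, Sstr3 and Sstr5 match Sstr2 at 49, 44 and 43 of the 54 bases.

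On mm10, Sstr1 (ENSMUSG00000035431) lies on chromosome 12 from 58211772 to 58214444 and Sstr2 (ENSMUSG00000047904) on chromosome 11 from 113619342 to 113626028. Sstr2 sits inside Slc39a11, a gene on the other strand none of whose exons overlaps it. Sstr3 (ENSMUSG00000044933) lies on chromosome 15 from 78537008 to 78544685, Sstr5 (ENSMUSG00000050824) on chromosome 17 from 25489875 to 25497288, and Galr1 (ENSMUSG00000024553) on chromosome 18 from 82392380 to 82406777. Over the 250 cells Sstr5 was found most widely, with a read in 142 cells (56.8%), followed by Galr1 in 114 cells (45.6%). Sstr1 had a read in 76 cells (30.4%), Sstr2 in 42 cells (16.8%) and Sstr3 in 21 cells (8.4%). These shares depend on depth. Sstr5 had a read in 46.7% and 39.1% of the cells of the shallow pools and in 83% of those of the deep pool, and Sstr1 in 12%, 17.2% and 59.1%.

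The receptors were not spread evenly over the cells. Sstr5 was the main somatostatin receptor of Gcg-high and Cck-high cells, Sstr2 had its highest mean level in Pzp-positive cells, and Galr1 was found in Gcg-high, Gip-high and Pzp-positive cells at overlapping levels. Sstr1 was low, with its highest mean in Pzp-positive cells too, and Sstr3 was rare in every class. For each class the counts of its cells were summed within each pool, and levels below are the CPM of these sums with the SD over 3 pools. A class sum can be lower because fewer of its cells make a transcript or because each makes less, and the sums alone cannot tell these apart.

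**Figure D1:**
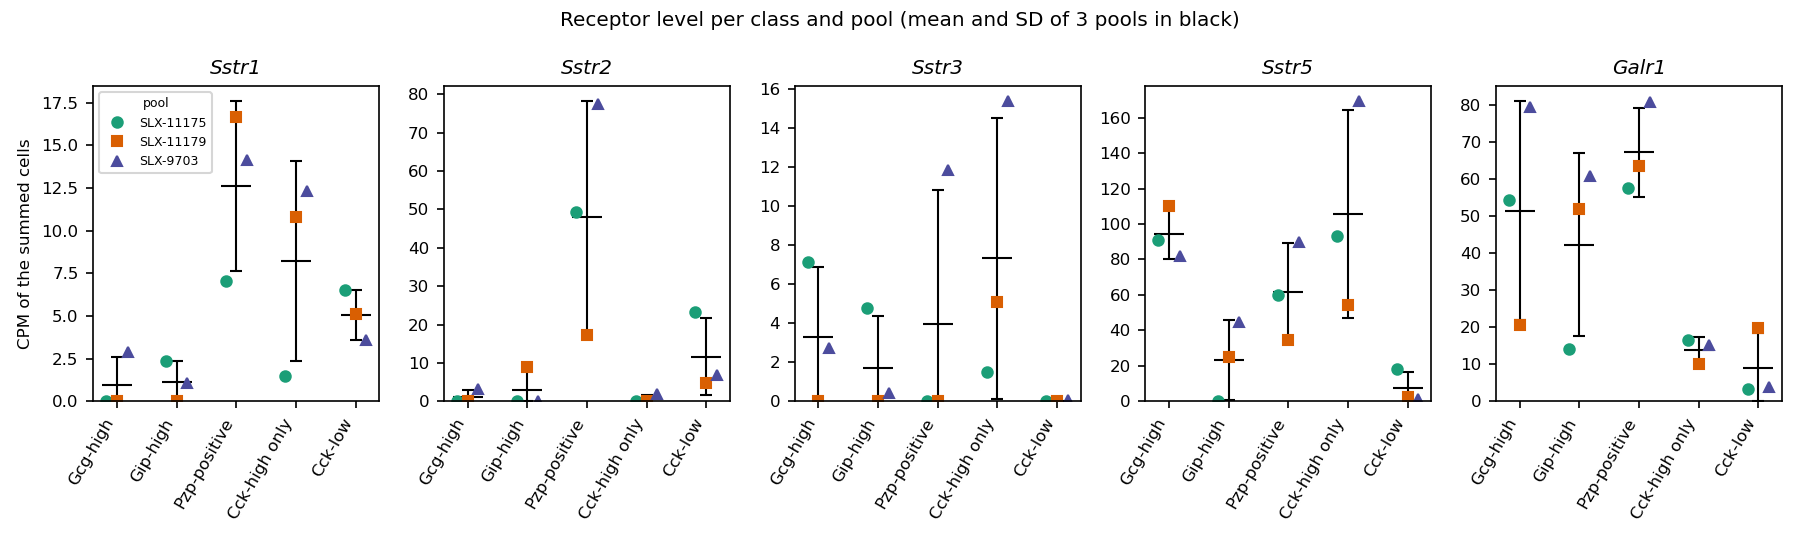
Level of each receptor in the summed cells of each class (CPM, vertical axis), with 1 point for each of the 3 pools and the mean and SD as bar and line, the lower end of the SD line stopping at 0. The Sstr5 means are highest in Cck-high and Gcg-high sums, Sstr2 lies above 17 CPM in each Pzp-positive sum, and the Galr1 points of Gcg-high, Gip-high and Pzp-positive sums overlap.

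Sstr2, the somatostatin receptor that most therapeutic somatostatin analogues bind best, was at 49.4, 17.3 and 77.5 CPM in Pzp-positive cells (48.1 ± 30.1 CPM, SD, n = 3 pools). In Gcg-high cells it was at 0, 0 and 3.21 CPM (1.07 ± 1.85 CPM), and the 2 classes did not overlap. A single cell held 89.9% of the 159 Sstr2 reads of the Gcg-high sum of SLX-9703, and single cells held 50% and 53.6% of the 42 and 28 reads of the shallow Pzp-positive sums. The Gip-high sums had 0, 8.95 and 0 CPM, from 5 reads of 1 cell, and the Cck-high sums 0, 0 and 1.96 CPM. In Cck-low cells the level was 23.3, 4.78 and 6.93 CPM (11.7 ± 10.1 CPM), below the Pzp-positive sum of the same pool each time and, in SLX-11179, below the Gip-high sum too. The highest mean was thus in Pzp-positive cells, then in Cck-low cells, and the Gip-high, Gcg-high and Cck-high means were all smaller than their own SD. Where no read was found the limits are wide: the 16 and 18 Gcg-high cells of the shallow pools, with 0 reads, allow shares with a read of up to 18.8% and 16.7% of cells (3 counts of the total) and levels of up to 2.68 and 1.88 CPM. These limit cells with a read at this depth, not cells that express the gene.

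Among single cells of the deep pool, 20 of 28 Pzp-positive cells had an Sstr2 read (71.4%, exact Clopper-Pearson 95% interval 51.3 to 86.8%). Of the other classes, 4 of 19 Gcg-high cells (21.1%, interval 6.05 to 45.6%), 3 of 24 Cck-high cells (12.5%), 1 of 6 Cck-low cells and 0 of 10 Gip-high cells had one. The intervals of Pzp-positive and Gcg-high cells do not overlap, but they cover counting error of 1 pool only. Depth was close in these 2 classes, with medians of 2147110 and 2400020 reads, and after every cell was thinned to 300000 reads the shares were 68.1% and 11.7%. Pzp-positive cells that had Sstr2 mostly had more than traces of it: of the 20 with a read, 19 had at least 10 CPM, and the highest had 318 CPM. Of the 4 Gcg-high cells with a read 3 were below 10 CPM, whereas the 3 Cck-high cells were all above it. Of all Sstr2 reads in the pool, 93.7% (4567 of 4872) lay in Pzp-positive cells. In SLX-11179 the class held 28 of 47 reads, and in SLX-11175 42 of 103, where Cck-low cells held the other 61. In the shallow pools 4 of 14 and 4 of 22 Pzp-positive cells had an Sstr2 read, against 0 of 16 and 0 of 18 Gcg-high cells.

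The 20 deep Pzp-positive cells with an Sstr2 read and the 8 without one had median depths of 2186760 and 2123610 reads. Their median Pzp was 1126 and 998 CPM. Tph1, the gene of the enzyme that starts serotonin synthesis, had a median of 576 CPM in the cells with Sstr2 and 317 CPM in those without. Cck was at medians of 129019 and 194962 CPM. The 2 sets of cells overlapped in each of these genes, and no test was made, since cells of 1 pool are not replicates.

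Sstr5 stood in Gcg-high cells at 91.1, 110.1 and 82 CPM (94.4 ± 14.3 CPM). In SLX-11179 a single cell gave 69.3% of the 176 reads. In Cck-high cells it was at 93.1, 54.5 and 169 CPM (105.6 ± 58.4 CPM), higher than in Gcg-high cells in 2 of 3 pools, and the 2 classes overlapped. Pzp-positive cells had 59.999, 34.6 and 89.7 CPM (61.4 ± 27.6 CPM), which overlapped with Gcg-high cells too. Gip-high cells had 0, 25.1 and 45 CPM (23.4 ± 22.6 CPM), below the Gcg-high sum in each pool, and their 0 rests on 10 shallow cells that allow up to 7.14 CPM. Cck-low cells had the lowest mean, with 18, 2.73 and 1.37 CPM (7.36 ± 9.21 CPM), although in SLX-11175 the Gip-high sum was lower.

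Almost every deep Gcg-high cell had an Sstr5 read (18 of 19, 94.7%), as did 25 of 28 Pzp-positive cells (89.3%), 19 of 24 Cck-high cells (79.2%) and 7 of 10 Gip-high cells. The median per cell was 62.3 CPM in Gcg-high cells (interquartile range 33.2 to 117 CPM), 50.4 CPM in Pzp-positive cells (13.9 to 113 CPM) and 77.8 CPM in Cck-high cells (3.22 to 217 CPM). It was 11.3 CPM in Gip-high cells (0.264 to 48.3 CPM). Gip-high cells of this pool were shallower, with a median of 831266 reads, and after thinning to 300000 reads 60.4% of them kept an Sstr5 read against 92.2% of Gcg-high and 83.6% of Pzp-positive cells. Single deep cells reached 449 CPM, in a Cck-high cell, and the highest of all 250 cells, at 547 CPM, was a Gcg-high cell of SLX-11179.

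**Figure D2:**
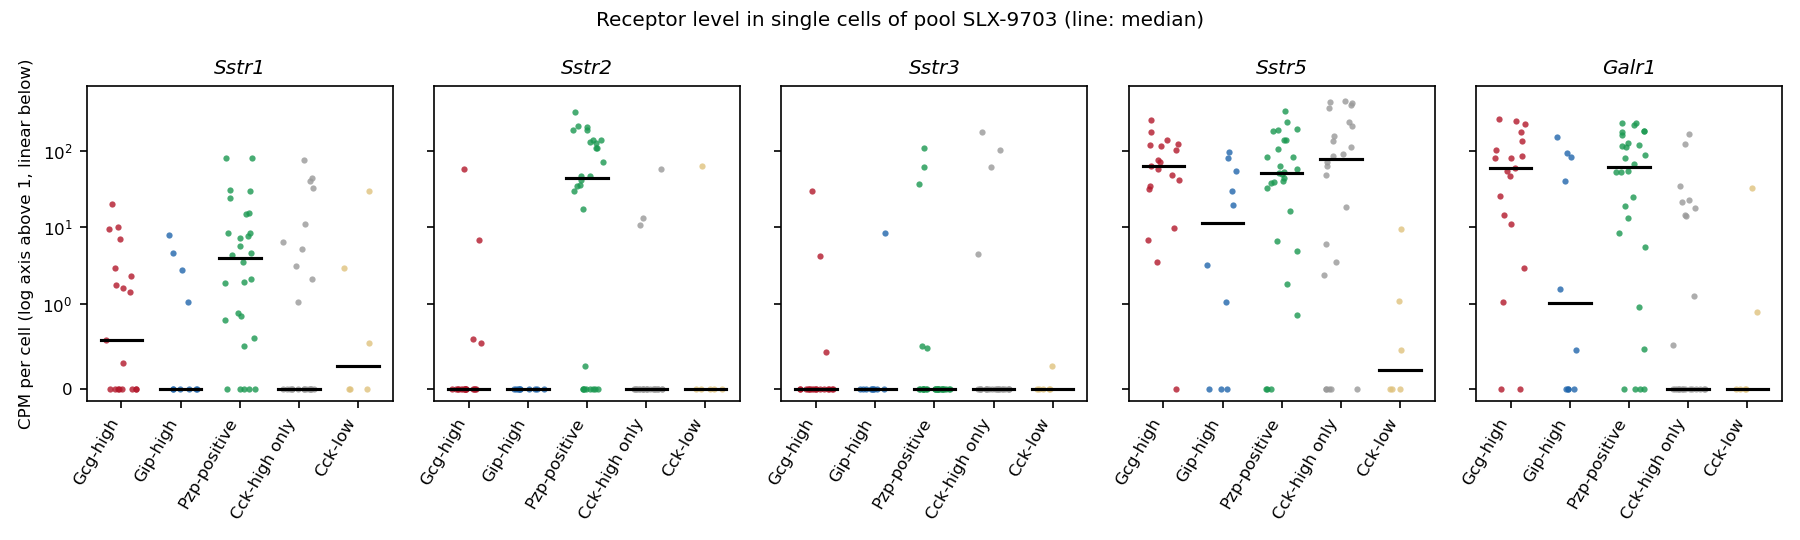
Level of each receptor in single cells of the deep pool SLX-9703 (CPM, vertical axis, logarithmic above 1 CPM and linear below), with 1 point per cell and the median of each class as a line. Sstr5 medians are 62.3 CPM in Gcg-high and 50.4 CPM in Pzp-positive cells, and the Sstr2 median is 0 in every class but Pzp-positive cells, where it is 43.7 CPM.

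Sstr1 was at 7.06, 16.7 and 14.1 CPM in Pzp-positive cells (12.6 ± 4.98 CPM) and at 1.5, 10.8 and 12.3 CPM in Cck-high cells (8.20 ± 5.85 CPM). A single cell gave 66.7% of the 6 Pzp-positive reads of SLX-11175 and 59.3% of the 27 of SLX-11179. Gcg-high cells had 0, 0 and 2.87 CPM and Gip-high cells 2.38, 0 and 1.09 CPM, so the Pzp-positive sum was above both in every pool. The Cck-low sums, at 6.50, 5.12 and 3.59 CPM, lay below the Pzp-positive sum of the same pool each time. The deep cells show that this receptor was common but scarce. A read was found in 23 of 28 Pzp-positive (82.1%) and 11 of 19 Gcg-high cells (57.9%), with medians of 3.90 and 0.575 CPM. Only 15 of the 52 deep cells with an Sstr1 read had 10 CPM or more, where Sstr5 had 58 of 73 and Galr1 49 of 60.

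Sstr3 was found in few cells. Its sums were 7.14, 0 and 2.74 CPM in Gcg-high cells and 0, 0 and 11.9 CPM in Pzp-positive cells, and the highest mean was in Cck-high cells (1.5, 5.07 and 15.4 CPM), where the SLX-11175 sum was below that of Gcg-high cells. The Cck-low sums held a single read in all. Of 88 deep cells 14 had an Sstr3 read, and 7 of these had 10 CPM or more, up to 175 CPM in a Cck-high cell and 110 CPM in a Pzp-positive cell. Most cells of every class had none, and the median was 0 CPM throughout.

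Galr1 was at 57.6, 63.6 and 80.9 CPM in Pzp-positive cells (67.4 ± 12.1 CPM). Gcg-high cells had 54.5, 20.6 and 79.7 CPM (51.6 ± 29.6 CPM) and Gip-high cells 14.3, 51.9 and 61 CPM (42.4 ± 24.8 CPM), and these 3 classes overlapped. Within each pool the Pzp-positive sum was the highest of the 3, by little over the Gcg-high sum in SLX-11175 and SLX-9703. Single cells weighed on these values too, with 59% of the 61 Gcg-high reads of SLX-11175, 51.5% of the 103 Pzp-positive reads of SLX-11179 and 62.1% of the 29 Gip-high reads of SLX-11179. The Cck-high sums, at 16.5, 10.1 and 15.2 CPM (13.9 ± 3.36 CPM), lay below the Gcg-high and Pzp-positive sums of every pool. Cck-low cells had 3.44, 19.8 and 3.76 CPM (9.0 ± 9.35 CPM). In Cck-high cells the receptors thus stood in another relation than in Gcg-high cells: Galr1 was lower in 3 of 3 pools, while Sstr5 was higher in 2 and lower in SLX-11179. Deep cells with a Galr1 read were 17 of 19 Gcg-high (89.5%), 24 of 28 Pzp-positive (85.7%), 6 of 10 Gip-high and 10 of 24 Cck-high (41.7%). Their median level was 58.7 CPM in Gcg-high, 60.5 CPM in Pzp-positive, 1.00 CPM in Gip-high and 0 CPM in Cck-high cells. In Gip-high cells Galr1 was therefore carried by some of the cells, the highest at 150 CPM.

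**Figure D3:**
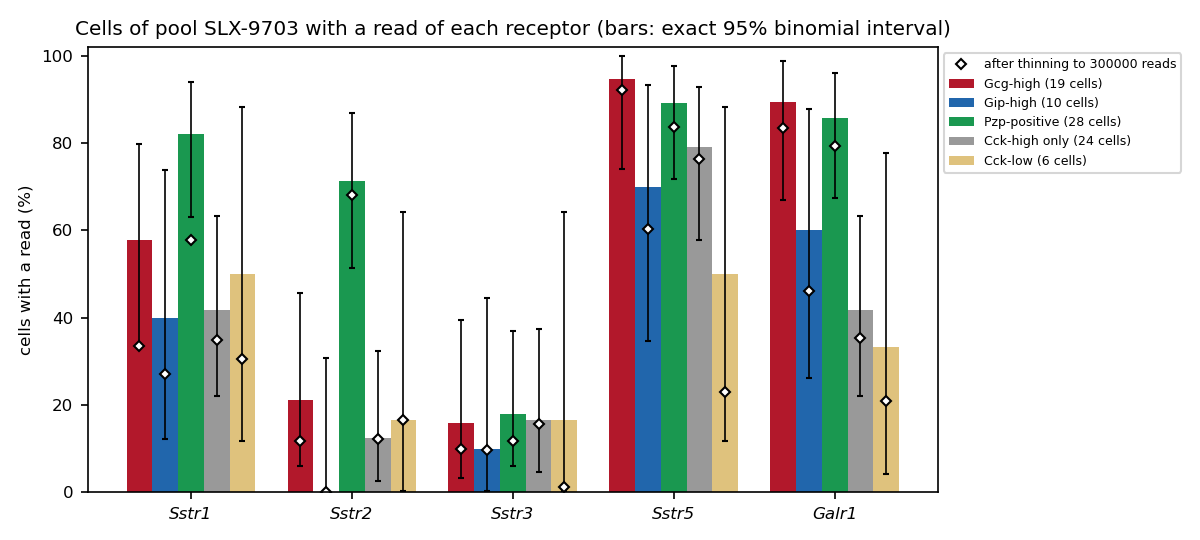
Share of the cells of each class in the deep pool SLX-9703 with at least 1 read of each receptor (percent, vertical axis), with exact 95% binomial intervals as lines and the share after thinning to 300000 reads as diamonds. Sstr2 stands at 71.4% in Pzp-positive cells and at 21.1% or less in the other classes, while Sstr5 is at 70% or more in all but the 6 Cck-low cells.

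Levels of different genes can be compared only per length, since longer transcripts give more reads. Per kilobase of exon, the mean level in Gcg-high cells was 34.5 CPM for Sstr5 and 17.3 CPM for Galr1, and under 1 CPM for Sstr1, Sstr2 and Sstr3. In Pzp-positive cells the means were 22.5 CPM per kilobase for Sstr5 (SD 10.1), 22.5 CPM for Galr1 (SD 4.04), 22.4 CPM for Sstr2 (SD 14.1) and 6.17 CPM for Sstr1 (SD 2.43). In SLX-11179, however, they were 12.6 CPM, 21.3 CPM, 8.06 CPM and 8.14 CPM, so that Sstr2 did not stand above Sstr1 there. Gip-high cells had 14.2 CPM per kilobase of Galr1 and 8.55 CPM of Sstr5, and Cck-high cells 38.7 CPM of Sstr5, 4.67 CPM of Galr1 and 4.01 CPM of Sstr1. The SD over pools of the Gip-high values was 8.30 CPM for Galr1 and 8.25 CPM for Sstr5. Within each pool Galr1 stood higher, at 4.78, 17.4 and 20.4 CPM per kilobase against 0, 9.17 and 16.5 CPM of Sstr5. No test of this difference was made.

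The leading receptor was also counted cell by cell. Of the 19 deep Gcg-high cells, the highest somatostatin receptor per kilobase was Sstr5 in 16, Sstr1 in 2 and Sstr2 in 1. Of the 28 Pzp-positive cells it was Sstr2 in 15, Sstr5 in 10 and Sstr1 in 3. In the 24 Cck-high cells Sstr5 led in 16, Sstr1 and Sstr3 in 2 each and Sstr2 in 1, and 3 had no read of a somatostatin receptor. Gip-high cells were led by Sstr5 in 5 cells and by Sstr1 in 3, and 2 had none. In the shallow pools, Sstr5 led in 10 of 16 and 10 of 18 Gcg-high cells, and Sstr2 in none of them. Shallow Pzp-positive cells were mixed, with Sstr2 leading in 4 and 3 cells, Sstr5 in 4 and 5 and Sstr1 in 3 and 4.

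Single deep cells had reads of several of these receptors at once, where 1 read was enough to count. Every deep Gcg-high cell had reads of at least 2 of the 5 genes (2 in 7 cells, 3 in 9 and 4 in 3), and every deep Pzp-positive cell did too (2 in 4 cells, 3 in 11, 4 in 9 and all 5 in 4). The commonest set in Gcg-high cells was Sstr1, Sstr5 and Galr1 (5 cells), then Sstr5 and Galr1 alone (4 cells). In Pzp-positive cells it was Sstr1, Sstr2, Sstr5 and Galr1 (8 cells). A level of at least 10 CPM was reached by 2 of the 11 deep Gcg-high cells with Sstr1. It was reached by 1 of 4 with Sstr2, 1 of 3 with Sstr3, 15 of 18 with Sstr5 and 15 of 17 with Galr1. In deep Pzp-positive cells it was 7 of 23, 19 of 20, 3 of 5, 21 of 25 and 20 of 24, in the same order. Of the 24 Cck-high cells, 6 had Sstr5 and no other member. Gip-high cells had 2 members in 6 cells, 3 in 2 and none in 2. In the shallow pools fewer were found per cell: 3 and 5 Gcg-high cells, 4 and 2 Gip-high cells and 3 and 7 Pzp-positive cells had none, no Gip-high cell of SLX-11175 had more than 1, and 3 of the 18 Gcg-high cells of SLX-11179 had 2 and none had more.

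The number of cells with both receptors of a pair was set beside the number that the product of the 2 shares gives, for 10 pairs in 5 classes and 3 pools. In 96 of these 150 cases the product was below 1 cell, which leaves no room for a shortfall of 1 cell. In the other 54 the pair met more often than the product in 32 and less often in 20, by at least 1 cell in 11 and 0 of them. After the cells of each pool were thinned to a common depth, the product was 1 cell or more in 38 cases. Of these the pair met more often in 23 and less often in 15, by at least 1 cell in 3 and 0 of them. The Cck-low gaps were wide for so few cells: in SLX-11175 the same 2 of 20 cells had Sstr1, Sstr2 and Sstr5, where each pair's product is 0.2 cells, and in SLX-11179 Sstr1 and Galr1 met in 4 cells against 0.696. In the Pzp-positive cells of SLX-11179, Sstr5 and Galr1 met in 6 cells against 3.68, or 3.52 against 1.90 after thinning to 20000 reads. In the deep Pzp-positive cells Sstr2 met Sstr5 in 19 cells (product 17.9), Galr1 in 17 (17.1) and Sstr1 in 16 (16.4). Sstr5 and Galr1 met in 16 deep Gcg-high cells and 21 deep Pzp-positive cells, but each was in nearly all of those cells, so that their overlap could hardly have been otherwise.

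**Figure D4:**
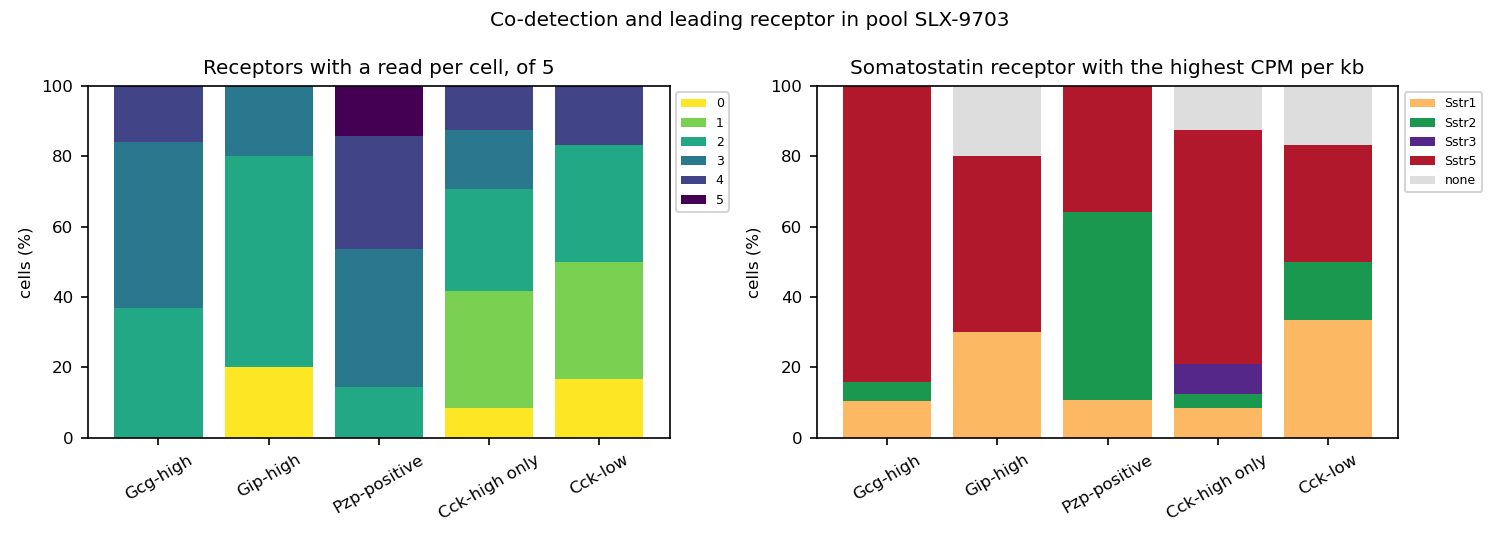
Left, share of the cells of each class in the deep pool SLX-9703 (percent, vertical axis) with reads of 0 to 5 of the receptors, and right, share whose highest somatostatin receptor in CPM per kilobase was Sstr1, Sstr2, Sstr3 or Sstr5, or that had none. All Gcg-high and Pzp-positive cells have reads of at least 2 receptors. Sstr5 leads in 16 of 19 Gcg-high cells, and Sstr2 leads in 15 of 28 Pzp-positive cells.

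Classes were tested against each other on their sums with edgeR (quasi-likelihood test); the pool was a block, and p-values were adjusted over the 11000 genes tested. All 5 receptors were tested, and 0 of them passed a false discovery rate of 5% in any of the 6 comparisons. Of all genes, 2.03% were called between Gcg-high and Cck-low cells, 3.2% between Gip-high and Cck-low, 2.07% between Pzp-positive and Cck-low, 0.0455% between Pzp-positive and Gcg-high, 0.309% between Gip-high and Gcg-high and 1.04% between Gip-high and Pzp-positive cells. At an unadjusted p under 0.05 edgeR gave 2, 0, 1, 2, 0 and 0 of the 5 receptors in these comparisons. They were Sstr1 and Sstr2 for Gcg-high against Cck-low and for Pzp-positive against Gcg-high cells. For Pzp-positive against Cck-low cells it was Sstr3, which rests there on 1 Cck-low read. DESeq2, which also called 0, gave 3, 2, 1, 2, 0 and 0. Among all genes edgeR gave 1504, 2053, 1463, 374, 1172 and 1330 of 11000 at this p. By DESeq2 it was 2181, 2760, 2175, 599, 1630 and 1861 genes. The shares of all genes that DESeq2 called were 8.2%, 13.1%, 7.35%, 0.691%, 3.38% and 4.99%. A p that misses the threshold does not show that the levels were alike, and the intervals below say how wide the possible differences are.

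The largest difference between hormone classes was that of Sstr2. It was higher in Pzp-positive than in Gcg-high cells by 4.74 on the log2 scale (standard error 1.71, 95% interval 1.07 to 8.40, unadjusted p = 0.0149, adjusted p = 0.99972, edgeR quasi-likelihood test), in 3 of 3 pools. This is a large fold with few called genes around it, since 5 of 11000 genes passed. It passed in 3 alternatives, with adjusted p = 0.0380 when these 2 classes were fitted alone, an alternative added after the data were seen, 0.0191 when they were fitted alone and cells of several classes were kept as well, and 0.0235 without a filter on low counts. Over 19 alternatives the adjusted p ranged from 0.0191 to 1 and the direction was the same. Leaving out 1 pool each gave 4.46 to 7.85, the highest without SLX-9703. In the fit of the 2 classes alone 0.734% of 8988 genes were called. With cells of several classes kept as well it was 1.02% of 9138 genes, and without the filter 0.179% of 30088. Sstr1 differed between these classes by 3.53 (standard error 1.56, unadjusted p = 0.0398, adjusted p = 0.99972, edgeR), higher in the Pzp-positive sum of 3 of 3 pools.

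Sstr5 and Galr1 passed no test between these classes, although the Sstr5 sums of Gip-high cells lay below those of Gcg-high cells in 3 of 3 pools without overlap. Between Pzp-positive and Gcg-high cells Sstr5 differed by -1.01 (95% interval -3.45 to 1.42, edgeR) and Galr1 by 0.16 (interval -1.56 to 1.88). Gip-high cells differed from Gcg-high cells by -1.37 for Sstr5 (interval -3.91 to 1.16) and by 0.17 for Galr1 (interval -1.59 to 1.93), and from Pzp-positive cells by 0.01 for Galr1 (interval -1.74 to 1.76). The intervals of Galr1 take in differences of more than 2-fold either way. Sstr2 differed by -3.53 between Gip-high and Pzp-positive cells (interval -7.89 to 0.83, unadjusted p = 0.104, edgeR).

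**Figure D5:**
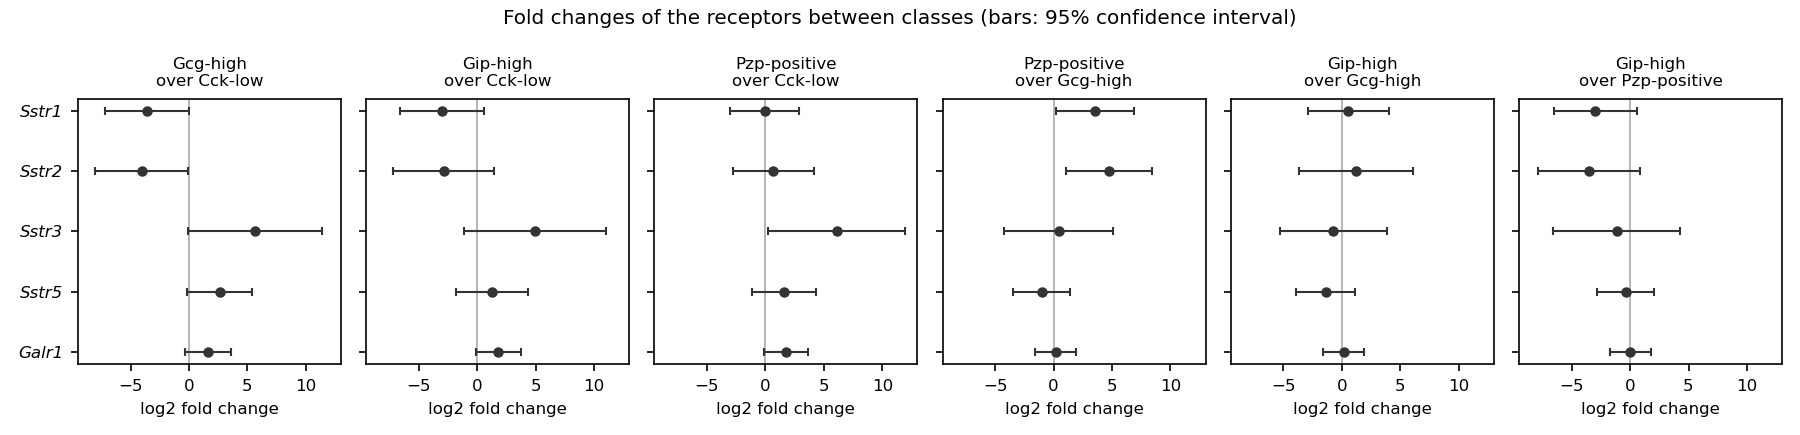
Log2 fold change of each receptor in the 6 comparisons of 2 classes (horizontal axis), with 95% intervals from edgeR's quasi-likelihood fit over 3 pools. Sstr2 and Sstr1 lie above 0 in Pzp-positive against Gcg-high cells with intervals that leave out 0, and Galr1 sits near 0 among the 3 hormone classes.

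Against Cck-low cells, Sstr5 and Galr1 had positive fold changes, Sstr1 negative ones and Sstr2 ones of both signs. In Gcg-high cells Sstr5 differed by 2.63 (standard error 1.31, adjusted p = 0.406, edgeR) and Galr1 by 1.63 (standard error 0.90, adjusted p = 0.473), each higher in the Gcg-high sum of 3 of 3 pools. Galr1 differed by 1.80 in Gip-high (adjusted p = 0.299) and by 1.79 in Pzp-positive cells (adjusted p = 0.402), higher in 3 of 3 pools each. These sizes rest heavily on single pools. Sstr5 in Gcg-high cells ranged from 1.64 (without SLX-11179) to 5.18 (without SLX-11175), and Galr1 from 0.70 (without SLX-9703) to 3.25 (without SLX-11179) in Gcg-high cells, with the same pools giving 0.78 to 3.08 in Gip-high and 1.15 to 3.16 in Pzp-positive cells. Sstr1 and Sstr2 were at -3.59 and -4.05 in Gcg-high cells (unadjusted p = 0.0489 and 0.0475, adjusted p = 0.361 and 0.357, edgeR), and Sstr2 ranged from -8.19 (without SLX-9703) to -2.11 (without SLX-11175). Fold changes are taken after TMM scaling, whose factors for the Cck-low sums were 0.375, 0.604 and 1.64, so they can differ from ratios of the CPM. Sstr1 in Pzp-positive against Cck-low cells is such a case: the CPM was higher in 3 of 3 pools, but the fold change was -0.06 and took the other sign in 8 of 17 alternatives. The Sstr3 fold changes against Cck-low cells rest on 1 read and are not read here.

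The Cck-low class differed from the others in markers of other cell types. Leukocyte genes (7 of 8 found in each Cck-low sum, with Cd3e at 0 in the shallow pools and Cd79a at 0 in the deep pool) summed to 441019 and 353688 CPM in the Cck-low sums of the shallow pools and 1417 CPM in the deep pool, and to 33 to 319 CPM in the Gcg-high, Gip-high, Pzp-positive and Cck-high sums. The 11 endocrine genes, all found, summed to 685, 1179 and 602 CPM in Cck-low sums, against 21865 to 43648 CPM in Gcg-high and 9577 to 20314 CPM in Pzp-positive sums. Few cells carried the leukocyte sums: the shallow Cck-low cells with no receptor read (17 and 18 cells) had medians of 4681 and 918 CPM, up to 688309 and 713613 CPM, and those with one (3 and 5 cells) medians of 87.1 and 127 CPM. Enterocyte genes summed to 10931 CPM in the 6 deep Cck-low cells, where the highest cell had 32299 CPM and the 5 cells with a receptor read had a median of 34.9 CPM. In the shallow pools the Cck-low enterocyte sums (1193 and 1154 CPM) were below the Gcg-high, Pzp-positive and Cck-high sums of the same pool (2085 to 3199 CPM). The Cck-low class thus had less endocrine and more leukocyte transcript than any of these classes in every pool. The shallow pools include non-fluorescent control cells that the labels do not mark, and some may lie in this class. The part of these markers in the fold changes was not tested.

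The receptor reads of the Cck-low class lay in few cells, which was noticed after the values were seen. Neurotensin (Nts), another gut hormone gene, was at 10000 CPM or more in 9 of the 49 Cck-low cells. Of these 9 cells, 6 had an Sstr2 read, 7 Sstr1, 5 Sstr5 and 7 Galr1. Of the other 40 cells, 0 had an Sstr2 read, which allows a level of up to 0.198 CPM, and 2 had Sstr1, 2 Sstr5 and 2 Galr1. Over the 9 cells the summed levels were 75.1 CPM of Sstr2, 52 CPM of Galr1, 33.7 CPM of Sstr1 and 32.2 CPM of Sstr5, beside 0 reads of Sstr3. The 6 cells with Sstr2 had 4374 to 11243 CPM of endocrine genes, at most 245 CPM of leukocyte genes and 0 to 314 CPM of Tph1. When the 9 cells were left out, a choice made after seeing these values, edgeR called Sstr5 and Galr1 higher than in the remaining Cck-low cells in Gcg-high and in Gip-high cells, and Sstr2, Sstr5 and Galr1 in Pzp-positive cells, while 5.72%, 7.34% and 6.19% of all genes were called. That choice removed most receptor reads from the class, so these calls are a description of where the reads lay.

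Cck-high cells were added to the fit as an added class after their levels were seen, and 0 of the 5 receptors passed in 4 more comparisons, with 0.0186% of genes called against Gcg-high, 0.606% against Gip-high, 0.00932% against Pzp-positive and 2.69% against Cck-low cells. At an unadjusted p under 0.05, edgeR gave Galr1 lower than in Gcg-high (-1.69, p = 0.0497), Gip-high (-1.94, p = 0.0308) and Pzp-positive cells (-1.88, p = 0.0317), with adjusted p of 1, 0.360 and 1. Sstr2 was at -5.24 against Pzp-positive cells (standard error 1.81, p = 0.0101, adjusted p = 0.850, edgeR). Sstr1 was at 3.20 against Gcg-high cells (p = 0.0392, edgeR). Against Cck-low cells edgeR gave Sstr2 at -4.85 (p = 0.0212), Sstr5 at 2.63 (p = 0.0373) and Sstr3 at 8.17 (p = 0.00559). Their adjusted p were 0.200, 0.262 and 0.106, and the Sstr3 value rests on 1 Cck-low read. Under that unadjusted p of 0.05 edgeR gave 319, 1248, 417 and 1779 of 10724 genes against Gcg-high, Gip-high, Pzp-positive and Cck-low cells. The Sstr5 difference from Gcg-high cells was 0.10 (interval -2.06 to 2.26).

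Pzp-positive and Gcg-high sums differed in markers of other cell types as well as in Sstr2. The 3 enterochromaffin genes (all found in the shallow Pzp-positive sums, with Lmx1a at 0 in the deep one) summed to 301, 371 and 772 CPM in Pzp-positive sums and to 44 to 85 CPM in Gcg-high sums, and goblet genes to 8429 to 11130 CPM and 930 to 2009 CPM. Of the 7 goblet genes, 5, 5 and 6 were found in the Pzp-positive sums, and Clca1 was at 0 in each. The 5 stem and cycling genes summed to 22.4, 331 and 27.2 CPM in Pzp-positive and 3.57 to 14.7 CPM in Gcg-high sums. Tuft cell genes, 2 of 5 of them found in each Pzp-positive sum, summed to 21.2, 21 and 28.7 CPM there. In Gcg-high sums they were at 1.79, 0.626 and 5.95 CPM. These markers did not follow Sstr2 everywhere. Cck-high sums, with 0, 0 and 1.96 CPM of Sstr2, had 84.1, 169 and 234 CPM of enterochromaffin genes. Their goblet genes summed to 2443, 3189 and 4601 CPM. Among Pzp-positive sums, that of SLX-11179 had the lowest Sstr2 (17.3 CPM) and the highest stem and cycling sum. The part of these markers in the Sstr2 difference between Pzp-positive and Gcg-high cells was not tested.

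The ligands were nearly absent from these cells. Somatostatin (Sst) had 0 reads in 250 cells (a count of 0 leaves room for 1.2% of cells with a read, as 3 counts of the total, and does not limit cells that express the gene below this depth), and so did Galp, a galanin-like peptide, and Sstr4, the remaining somatostatin receptor. Cortistatin (Cort), a related peptide that binds the same receptors, had 3 reads in 1 cell. Galanin (Gal) had 419 reads in 8 cells, and Spexin (Spx) 3 reads in 2 cells. Galr2, the galanin receptor that also couples to other G-proteins, had 105 reads in 12 cells, far below Galr1 with 11004 reads.

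Other genes of the pathway were looked up in 8 lists of 43 genes, which hold the ligands and other receptors above and downstream genes, and 25 were tested, all of them downstream. Against Cck-low cells, 2 were called higher and 0 lower in Gcg-high cells, 3 higher and 1 lower in Gip-high cells and 2 higher and 0 lower in Pzp-positive cells, and 0 were called between hormone classes by edgeR. Of all genes tested, 1.23% were called higher and 0.8% lower in the Gcg-high comparison, 1.25% and 1.95% in the Gip-high and 1.18% and 0.891% in the Pzp-positive comparison. The median log2 fold change of the 25 genes was 0.89, 1.78 and 1.18 in these comparisons, against -0.22 over all genes in the Gip-high comparison and close to 0 in the others. Gnai1, an inhibitory G-protein alpha subunit, was at 141, 74.4 and 99.3 CPM in Gcg-high cells, 58.8, 91.3 and 100 CPM in Pzp-positive cells and 0, 0.341 and 0.342 CPM in Cck-low cells. It was higher by 8.35 on the log2 scale in Gcg-high than in Cck-low cells (adjusted p = 3.84e-04, edgeR). Gnao1, the alpha subunit of Go, was at 104, 76.9 and 63.8 CPM in Gcg-high and 69, 113 and 112 CPM in Gip-high cells, against 0.382, 9.56 and 1.03 CPM in Cck-low cells, and was called in both. Gnai1 was also called in Gip-high and Pzp-positive cells, Cacna1d, a voltage-gated calcium channel, in Pzp-positive cells and Kcnj5, a G-protein-gated potassium channel, in Gip-high cells. Grk6, a kinase that phosphorylates active receptors, was the gene called lower in Gip-high cells (0, 0 and 0.146 CPM, against 8.79, 4.10 and 57.8 CPM in Cck-low cells). The Cck-low makeup given above applies to each of these.

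Across the 88 deep cells, the genes whose log2(CPM + 1) was most like that of a receptor were looked up among 16667 genes. For Sstr2 these were Pgc (Pearson r = 0.69), Habp2 (0.69), Tph1 (0.68), Pzp itself (0.63) and D930028M14Rik (0.62), and in the shallow pools the same genes had r of 0.21 to 0.61. Those for Sstr5 were Scg2 (0.68), Cd63-ps (0.67), Aplp1 (0.67), Neurod1 (0.67) and Gucy2c (0.66), of which Scg2 and Neurod1 are general endocrine genes. In the shallow pools these 5 had r of 0.32 to 0.64. Galr1 was most like Gng4 (0.54), a G-protein gamma subunit, Tspan1 (0.51), Gfra3 (0.51), Ctsz (0.51) and Bex2 (0.51), with r of 0.20 to 0.48 in the shallow pools except for Ctsz (-0.014 and 0.11). Sstr1 had weaker matches, led by Cyp2d37-ps (0.50), Klf12 (0.47), Fech (0.45), Mgll (0.44) and Nr1i2 (0.42), and in the shallow pools only Fech and Mgll among these had r above 0.15 (0.16 to 0.36). Sstr3 was in too few cells to be compared. These cells share 1 pool, its library preparation and its range of depths, so the values are descriptions. Within a class the values can differ: Sstr2 had r = 0.40 with Tph1 and 0.11 with Pzp over the 28 Pzp-positive cells.

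Within 3-fold of a threshold that defines the classes lay, of the 88 deep cells, 12 cells for Gcg, 4 for Gip, 4 for Pzp and 14 for Cck. The Pzp-positive cell nearest the threshold had 104 CPM of Pzp, 17.3 CPM of Sstr2 and 4.82 CPM of Sstr5, and the nearest cell below had 36.1 CPM of Pzp, 0 of Sstr2 and 6.02 CPM of Sstr5. The nearest cell above the Cck threshold, at 1096 CPM of Cck, had 75.2 CPM of Sstr1 and 22.5 CPM of Galr1, where the nearest below had 2.91 CPM of Sstr1 and 0 of Galr1.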

How the data were processed

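The authors deposited 1 table of raw counts, reads per gene and cell without normalization. Per the submitters' processing notes, reads were aligned with GSNAP to mm10 and counted with HTSeq (0.5.3p3); strand is not marked. Lines that name no gene held 77.6% of counts and spike-ins 5.34%, and both were kept out of the library sizes and the tests. The table's 4 columns without a matching sample were left aside. Symbols and coordinates came from GENCODE M21 (45143 of 46078 identifiers).

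Cells are not replicates, so each class was summed within its pool (3 cells or more) and compared with edgeR 4.0.16 in R 4.3.3 (TMM, filterByExpr, quasi-likelihood, Benjamini-Hochberg over all genes, false discovery rate 0.05), in 1 fit of 4 classes with the pool as a block. DESeq2 1.42.0 was an alternative. The study's methods name 3 mice, 2 of them sequenced at low depth, but nothing in the labels ties pools to mice, so p-values measure the spread between pools. Sums of the same pool had residual correlations from 0.0249 to 0.391 and sums of different pools from -0.209 to 0.0981. On simulated counts for Pzp-positive against Gcg-high cells (9896 genes tested), log2 changes of 3 were called in 34.9% of 86 genes and changes of 6 in 80.2% of 91, with 1 false call. Thinned shares are expectations under hypergeometric sampling. Intervals and floors (3 counts) cover counting error only, and reads are not independent molecules. Doublets were not searched for; wells were meant to hold 1 sorted cell each, but by the study's own account some may have held a small clump. The members and lists were chosen with earlier results of these data known, and all 5 members are named. Pathway genes are named where called, and genes most like a member are the 5 of highest r among genes found in at least 10% of deep cells. Numbers were computed with Python 3.11.15, pandas 2.3.3 and scipy 1.17.1. Galr3 is not analysed here.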

Additional observations from a re-analysis of the deposited data

How the results depend on the processing

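No member was called in most alternatives, and the exceptions are given here. Between Pzp-positive and Gcg-high cells, 1 member, Sstr2, was called when each pair of classes was fitted alone (5.38, added after the data were seen), when cells of several classes were kept in such separate fits (5.47) and without a filter on low counts (4.82). Of all genes, 0.734%, 1.02% and 0.179% were called in these fits. Without the 9 Nts cells in the Cck-low class, added after the data were seen, 2 members were called in Gcg-high, 2 in Gip-high and 3 in Pzp-positive cells. The shares of all genes called were 5.72%, 7.34% and 6.19%. That choice removed most receptor reads from the class, so these calls describe where the reads lay. The fold changes of Sstr1 and Sstr2 then turned to 2.39 and 7.23 in Gcg-high and 3.36 and 8.78 in Gip-high cells, and Sstr1 to 6.59 in Pzp-positive cells; these depend on the prior count, since the Cck-low sums were near or at 0 reads. Every reversal, these included, was of a difference that did not pass in the reported fit. Sstr2 in Pzp-positive and Sstr5 in Gip-high against Cck-low cells reversed in 2 and 1 of 19 alternatives, and passed only without the 9 Nts cells. Those 9 cells held 156 reads of Sstr2 and 67 of Sstr5, and the other 40 Cck-low cells held 0 and 4. The cause of the other reversals was not tested.

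Against Cck-low cells, Sstr1 in Pzp-positive cells was 0.12 (10000 reads per cell), 0.14 (stricter thresholds), 0.66 (cells of several classes kept), 0.30 (pairs fitted alone), 0.00093 (hormone genes left out) and 0.080 (no filter), and -0.31 to 0.92 without 1 pool each. Sstr2 was -0.88 with stricter thresholds and -0.34 to 2.36 without 1 pool each. Sstr5 in Gip-high cells was -0.64 to 4.23 without 1 pool each, the lowest without SLX-9703. Between Pzp-positive and Gcg-high cells, Sstr3 was -0.80 (50000 reads per cell), -1.83 (looser thresholds) and -0.0012 (with Cck-high cells as an added class), and Galr1 was -0.0033 (50000 reads) and -0.087 to 0.45 without 1 pool each. Between Gip-high and Gcg-high cells, Sstr1 was -0.17 (looser thresholds) and -0.32 to 0.43 without 1 pool each, Sstr2 was -2.51 (thinned to 20000 reads) and -8.17 to 6.17 without 1 pool each, the lowest without SLX-11179, and Galr1 was -0.16 to 0.71. Between Gip-high and Pzp-positive cells, Sstr3 was 0.044 (looser thresholds), Sstr5 was 0.38 (50000 reads) and -1.12 to 0.011 without 1 pool each, and Galr1 was -0.0026 (hormone genes left out), -0.026 (pairs fitted alone), -0.14 (no filter), -0.27 (thinned) and -0.37 to 0.42 without 1 pool each.

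The pool was the block, so that classes were compared within pools, and without the replicate block 0 members were called in each of the 6 comparisons; well numbers shared by pools pair nothing. The count of all genes called moved by more than 1.5 times over the alternatives, from 67 to 884 (223 in the reported fit) for Gcg-high against Cck-low, 80 to 1387 (352) for Gip-high against Cck-low, 76 to 876 (228) for Pzp-positive against Cck-low, 1 to 93 (5) for Pzp-positive against Gcg-high, 4 to 343 (34) for Gip-high against Gcg-high and 12 to 549 (114) for Gip-high against Pzp-positive cells. The mean share of Cck-low cells with Sstr2 was 18.3% at 50000 reads per cell and 6.51% with stricter thresholds, and that of Gip-high cells with Galr1 67.5% at 50000 reads. At 50000 reads SLX-11175 had no Gip-high sum, and with stricter thresholds SLX-9703 had no Cck-low sum. In the shallow pools, with 5 to 23 cells a class, 0 reads allow levels of up to 1.02 to 7.14 CPM.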
